A study of Homo sapiens with 2 samples.

Results

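The 91 genes described here encode the nuclear part of the mitochondrial respiratory chain. They were taken from the 60774 gene identifiers of the table by matching each identifier to its GENCODE 29 symbol and keeping protein-coding genes whose symbols begin with NDUFA, NDUFB, NDUFC, NDUFS or NDUFV and a number, SDHA to SDHD, UQCR, CYC1, COX4 to COX8, or ATP5. Membership was decided by symbol alone, but the set was chosen with earlier results of these data known. By complex, 37 genes fell to complex I, 4 to complex II, 10 to complex III, 19 to complex IV and 21 to complex V. NDUFA4 and its paralogue NDUFA4L2 were placed in complex IV, where the NDUFA4 protein is found, although their symbols are those of complex I. The symbol pattern also takes in 11 genes that are tissue forms, processed copies or partners of the complexes rather than standard subunits, and they are marked as such below. ATP5MGL and the readthrough genes NDUFC2-KCTD14 and ATP5MF-PTCD1 are not among these 11.

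RNA was measured in MDA-MB-231, a human breast cancer cell line that lacks oestrogen receptor, progesterone receptor and HER2 amplification. One group is labelled as a vector control and the other as over-expressing YWHAB, the gene of the 14-3-3 beta adaptor protein, and the series title ties that over-expression to less migration and invasion. Each group is 1 library of total RNA from the same line, and how the vector was delivered or whether the cells are 1 clone is not given in the sources used here. With 1 library per group there was no replicate check and no test of the conditions, so every difference below is a difference between 2 libraries.

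The libraries held 12375999 fragments (vector) and 13810668 fragments (YWHAB). The YWHAB gene itself stood at 239 FPKM (vector) and 336 FPKM (YWHAB), a ratio of 1.41 with a 95% counting interval of 1.36 to 1.45. FPKM divides fragment numbers by gene length and by library size, so levels can be set beside each other between genes. The mesenchymal genes VIM, CD44 and AXL were at 453 to 998 FPKM in these libraries, while ESR1, PGR and CDH1 were at 0.242 FPKM or less, EPCAM was at 1.21 and 1.53 FPKM, and ERBB2 was at 32.8 and 49.97 FPKM. The protocol fields of the labels also carry text on fat cell induction and on retinas. Of 5 adipocyte and 5 retina markers none reached a mean of 1 FPKM, ADIPOQ and LEP were at 0 in both libraries, and that text was not taken as a fact about these cells.

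The respiratory chain moves electrons from NADH and succinate to oxygen and uses the energy to pump protons across the inner mitochondrial membrane. Complex I oxidises NADH, complex II oxidises succinate, complex III passes electrons from coenzyme Q to cytochrome c, complex IV hands them to oxygen, and complex V lets protons flow back and makes ATP. Most subunits are encoded in the nucleus, made in the cytosol and imported, and a small core of complexes I, III, IV and V is encoded by mitochondrial DNA. In tumour cells the chain supplies ATP and also recycles the cofactors needed for aspartate and pyrimidine synthesis.

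Of the 91 genes, 83 were above 0 in at least 1 library and 79 averaged 1 FPKM or more and were compared. Differences are log2(FPKM + 1) with YWHAB minus log2(FPKM + 1) with the vector, and on that scale low genes differ less than their FPKM ratios do. Among the 79 genes compared, the median difference was -0.14, against 0.03 over all 13420 genes compared in the table. The difference was below 0 for 51 of these genes and above 0 for 28, against 6276 and 7144 of all 13420 genes compared. The fragments of all 91 members made up 0.533% of the vector library and 0.500% of the YWHAB library. Fewer mitochondria-rich cells and less of these RNAs per cell cannot be told apart in such bulk RNA.

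No member differed by as much as 2-fold in either direction, where 0.686% of all genes compared were 2-fold higher and 1.97% were 2-fold lower in the YWHAB library. A gene is called higher or lower below when its difference is at least 0.32 in size, which is a ratio of 5 to 4 on the FPKM + 1 scale. By this size 3 members were called higher and 17 lower, against 18.4% of all genes compared higher and 16.8% lower. In shares, 3.80% of the members were higher and 21.5% were lower, so the higher members were fewer than in the table at large and the lower members were nearer to its share. With both libraries rescaled to equal totals the split was 5 higher and 13 lower, against 22.5% and 16.4% of all genes. The 95% counting interval of the ratio lay above equal levels for 8 members and below them for 30, against 27.8% and 21.8% of all genes, and it spanned equal levels for 41.

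**Figure D1:**
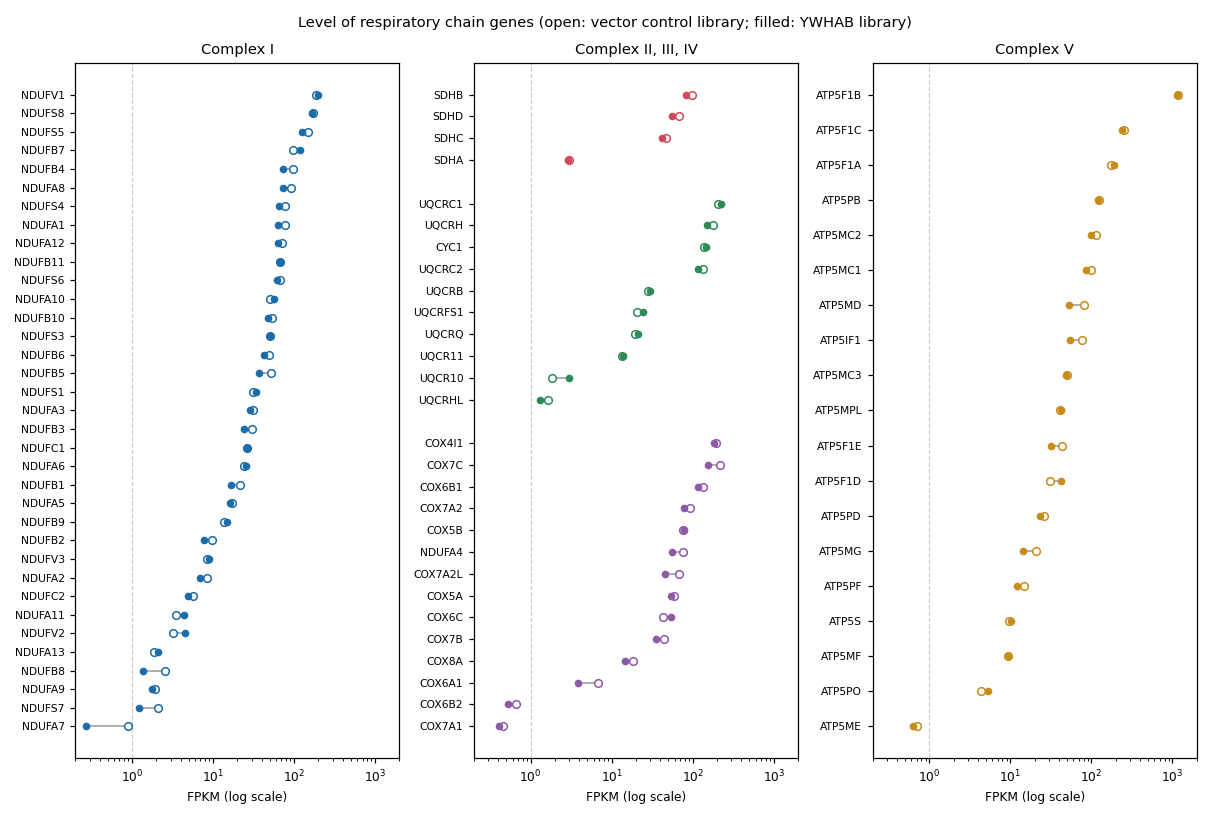
Level of members above 0, in FPKM on a log axis, with open circles for the vector control library, filled circles for the YWHAB library and genes ordered by mean level within a complex. The open and filled circles of a gene lie close together while levels within a complex spread over more than 1 order of magnitude, and ATP5F1B stands highest at 1179 and 1135 FPKM.

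The complexes did not sit at the same place. The median difference was -0.14 for complex I (35 genes compared), -0.20 for complex II (4 genes), 0.08 for complex III (10 genes), -0.30 for complex IV (12 genes) and -0.08 for complex V (18 genes). Summed over their fragments, complex IV genes were at 0.844 times the vector library (0.820 to 0.869) and complex II genes at 0.862 times (0.818 to 0.909). Complex I was at 0.948 times (0.928 to 0.967), complex V at 0.947 times (0.931 to 0.963) and complex III at 1.01 times (0.986 to 1.04). These intervals cover counting error only, and whether the complexes differ from each other beyond the spread between cultures was not testable with 1 library per group.

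**Figure D2:**
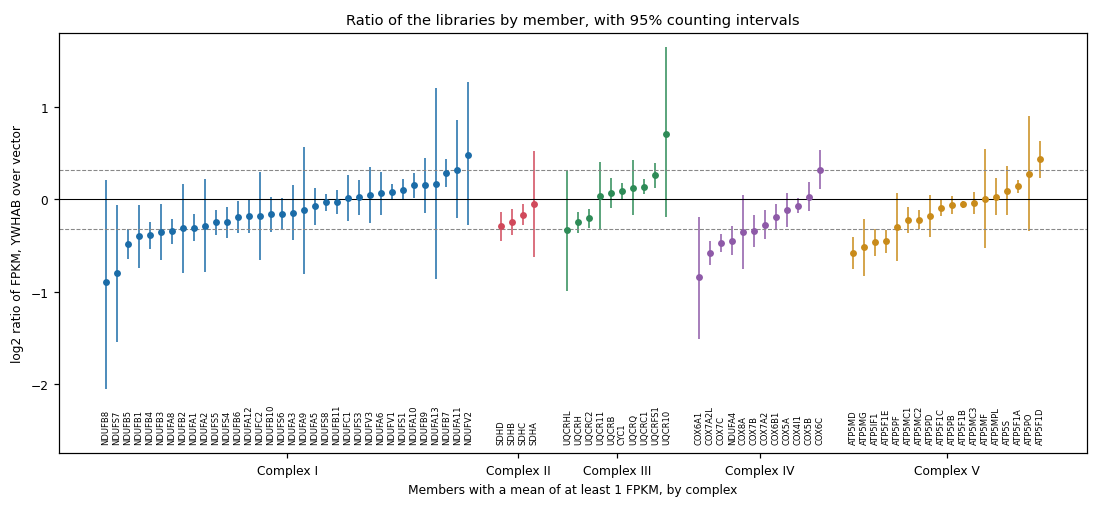
Log2 ratio of FPKM, YWHAB over vector, for members compared, ordered within complex, with vertical bars for 95% counting intervals and dashed lines at 0.32 on either side. All 4 complex II points and 10 of the 12 complex IV points lie below 0, while 7 of the 10 complex III points lie above it.

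Complex I has 7 nuclear-encoded core subunits that carry the flavin and the iron-sulfur clusters, and the differences of 5 of these lay between -0.03 and 0.10. NDUFV1, which binds NADH and the flavin, was at 185 FPKM with the vector and 196 FPKM with YWHAB. NDUFS1, which holds several iron-sulfur clusters, was at 31.5 and 33.9 FPKM. Both were slightly higher in the YWHAB library, each with a counting interval that included equal levels. NDUFS3, a core subunit of the matrix arm, was at 50.1 and 50.9 FPKM, and NDUFS8, which carries 2 clusters, was at 172 and 168 FPKM. The remaining core genes were low and differed in opposite directions. NDUFV2, the cluster-bearing partner of NDUFV1, was at 3.24 FPKM with the vector and 4.53 FPKM with YWHAB, from 25 and 39 fragments, and its ratio of 1.40 had an interval of 0.825 to 2.41. NDUFS7, which holds the last cluster before coenzyme Q, was at 2.11 and 1.21 FPKM, from 42 and 27 fragments, with a ratio of 0.576 (0.342 to 0.956). Over the 7 core genes the median difference was 0.02.

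The accessory subunits of complex I, which surround the core and are needed for its assembly, had a median difference of -0.16 over 28 genes compared. No gene was called higher and 6 (21.4%) were called lower, against 16.8% of all genes compared. The lower ones all belonged to the membrane arm, whose 20 genes had a median of -0.17, while the 15 compared genes of the matrix arm, core subunits included, had a median of -0.03. Within the membrane arm the 11 NDUFB genes, which build the far part of that arm, had a median of -0.28, and 5 of them were called lower. With the length trend of protein-coding genes removed, as described below, the medians were -0.08 for the accessory genes, -0.11 for the membrane arm, -0.01 for the matrix arm and -0.14 for the NDUFB genes. In each of these sets but the matrix arm 2 genes were then called lower and 1 higher, so most of the membrane arm calls were lost.

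NDUFB5 was at 52.3 FPKM with the vector and 37.4 FPKM with YWHAB, a ratio of 0.716 (0.641 to 0.798). NDUFB4 was at 95.7 and 73.0 FPKM, a ratio of 0.763 (0.689 to 0.845). NDUFB8 had the lowest difference of the complex, -0.58, but rested on 20 and 12 fragments at 2.57 and 1.38 FPKM, with an interval from 0.240 to 1.15. Its length was fixed only up to a multiple, so these fragment numbers and the interval depend on the multiple taken. Of the NDUFB genes, the one with the largest difference was thus the one with the fewest fragments. NDUFB1 was at 21.7 and 16.5 FPKM and NDUFB3 at 30.6 and 24.0 FPKM. NDUFA8, a membrane arm subunit of the intermembrane space, was at 91.9 and 72.2 FPKM.

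Other members of the same arm went the opposite way. NDUFB7, which also faces the intermembrane space, was at 98.3 FPKM with the vector and 120 FPKM with YWHAB, with a ratio of 1.22 (1.10 to 1.35). NDUFA11, which lies against the membrane arm, was at 3.51 and 4.39 FPKM, with an interval of 0.868 to 1.82. NDUFA10 was at 50.3 and 55.9 FPKM, a ratio of 1.11 (1.01 to 1.22). NDUFB7 and NDUFA10 were the only complex I genes whose counting interval lay above equal levels (5.71%), while 10 lay below (28.6%). Of all genes compared, 27.8% lay above and 21.8% below, so the share below was the nearer to that of the table. The other complex I genes compared ran from -0.30 (NDUFA1) to 0.14 (NDUFB9). NDUFAB1, the acyl carrier protein that is also a complex I subunit, is not matched by the symbol pattern and was at 30.4 and 27.7 FPKM.

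All 4 subunits of complex II were lower in the YWHAB library, none by enough to be called. SDHB, the iron-sulfur subunit, was at 98.3 FPKM with the vector and 83.2 FPKM with YWHAB, a ratio of 0.847 (0.768 to 0.933). The membrane anchors followed it, with SDHC at 46.6 and 41.6 FPKM and SDHD at 68.6 and 56.0 FPKM, and the counting intervals of all 3 lay below equal levels. SDHA, the flavoprotein that oxidises succinate, was listed at 2.99 and 2.88 FPKM, a ratio of 0.965 (0.650 to 1.44). In the vector library SDHA was thus 32.9 times lower than SDHB, although the proteins stand in the complex at equal numbers. SDHA lies at chr5:218241-256700 on the plus strand of GRCh38, the assembly that hg38 denotes. Of the 50-base stretches sampled from SDHA transcripts, 8.65% also occur in a gene elsewhere in the genome. In other members the share was 13.0% for UQCRH, at 177 and 149 FPKM, and 14.0% for COX6A1, at 6.85 and 3.82 FPKM. The stretches come from all transcripts of a gene and do not show how its reads were assigned. The part of shared sequence in the low level of SDHA was not tested, and that level is uncertain.

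Complex III was the one complex with a median above 0. UQCRC1, a core protein of the matrix side, was at 203 FPKM with the vector and 224 FPKM with YWHAB, a ratio of 1.10 (1.04 to 1.16). UQCRFS1, the Rieske iron-sulfur protein, was at 20.3 and 24.3 FPKM, a ratio of 1.20 (1.09 to 1.32). CYC1, the gene of cytochrome c1, was at 138 and 147 FPKM. These 3 were the complex III genes with intervals above equal levels, and CYC1 was only just so, with a lower bound of 1.00. UQCRC2, the partner of UQCRC1, went the other way at 132 and 115 FPKM, a ratio of 0.868 (0.809 to 0.931). UQCRH, the hinge protein that helps cytochrome c1 to dock cytochrome c, was at 177 and 149 FPKM, a ratio of 0.842 (0.779 to 0.909). Thus the paired core proteins UQCRC1 and UQCRC2 differed in direction between the libraries, each beyond its counting interval.

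The small subunits of complex III were near equal or thinly covered. UQCRB was at 28.3 and 29.7 FPKM, UQCRQ at 19.5 and 21.3 FPKM and UQCR11 at 13.4 and 13.8 FPKM. UQCR10 had the highest difference of all members, 0.50, from 1.83 to 2.99 FPKM, but with 17 and 31 fragments its interval ran from 0.877 to 3.15. UQCRHL, an intronless copy of UQCRH, was at 1.63 and 1.30 FPKM, and 8.96% of its sampled 50-base stretches are shared with other genes, UQCRH first among them. Whether its fragments are those of UQCRH was not tested.

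Complex IV had the lowest median, and 6 of its 12 genes compared (50%) were called lower and none higher, against 16.8% and 18.4% of all genes compared. With the length trend removed, as described below, 4 were called lower and 1 higher. Its median was then -0.14, above the -0.19 of complex II. Without the partner gene COX7A2L, and with the length trend kept, its median was -0.27 over 11 genes. COX7C, a small membrane subunit, was at 217 FPKM with the vector and 157 FPKM with YWHAB, a ratio of 0.722 (0.673 to 0.774). NDUFA4, a subunit of complex IV despite its symbol, was at 76.3 and 56.0 FPKM, a ratio of 0.734 (0.656 to 0.821). COX7A2L, which helps complexes III and IV to join into supercomplexes, is counted as a partner rather than a standard subunit. Its levels were 68.0 and 45.5 FPKM, a ratio of 0.669 (0.611 to 0.732). These genes had at least 572 fragments in each library and intervals well below equal levels. COX6A1 had the lowest difference of all members compared, -0.70, at 6.85 and 3.82 FPKM from 53 and 33 fragments, with a ratio of 0.558 (0.350 to 0.878). It lies at chr12:120438090-120440742 on the plus strand of GRCh38. Its copy COX6A1P2 was listed at 4.90 and 4.83 FPKM, and 14.0% of the sampled stretches of COX6A1 are shared, so the split of reads between them is uncertain. COX7B was at 44.3 and 34.9 FPKM and COX8A at 18.5 and 14.5 FPKM.

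The genes of complex IV that first meet the mitochondrially encoded core during assembly, COX4I1 and COX5A, were closer to equal. COX4I1 was at 192 and 183 FPKM, with an interval of 0.900 to 1.01, and COX5A was at 58.1 and 53.8 FPKM, with an interval of 0.813 to 1.05. COX5B, a zinc-binding subunit, was at 76.6 and 78.3 FPKM. COX6C was the one gene of the complex with an interval above equal levels, at 43.4 and 54.1 FPKM, with a ratio between 1.08 and 1.44. COX6B1 at 132 and 116 FPKM and COX7A2 at 93.6 and 77.4 FPKM were lower, with intervals below equal levels.

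The paralogue sets of complex IV were represented by their common forms. COX4I2, COX6A2, COX7B2, COX8C and NDUFA4L2 were at 0 in both libraries, which allows up to 3 fragments each. COX7A1, the heart and muscle form, had 3 fragments in each library, and COX6B2, a testis form, had 8 and 7. For a gene of 1 kb, 3 fragments are worth 0.242 FPKM (vector) and 0.217 FPKM (YWHAB). Of 4 muscle markers none reached a mean of 1 FPKM, and MYH7 and TNNT2 were at 0 as well. The others, ACTA1 and CKM, had 5 and 2 fragments with the vector and 0 with YWHAB.

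In complex V the genes of the catalytic head differed little or were higher, except ATP5F1E, while several small membrane and regulatory genes were lower. ATP5F1B, the catalytic beta subunit, was the highest member at 1179 FPKM with the vector and 1135 FPKM with YWHAB, a ratio of 0.963 (0.939 to 0.988). ATP5F1A, the alpha subunit, was at 173 and 191 FPKM, a ratio of 1.10 (1.05 to 1.16). ATP5F1C, the gamma subunit that turns inside the head, was at 253 and 238 FPKM. The small head subunits differed in opposite directions. ATP5F1D, the delta subunit, was at 31.1 and 42.1 FPKM, a ratio of 1.35 (1.18 to 1.56). ATP5F1E, the epsilon subunit that binds beside it, was at 44.0 and 32.1 FPKM, a ratio of 0.729 (0.667 to 0.796).

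Of the membrane part, ATP5MD and ATP5MG, which take part in the pairing of ATP synthases, were the lowest. ATP5MD was at 80.3 FPKM with the vector and 53.7 FPKM with YWHAB, a ratio of 0.669 (0.592 to 0.756). ATP5MG was at 20.5 and 14.3 FPKM, a ratio of 0.699 (0.563 to 0.866). ATP5MF and ATP5MPL were near equal, at 9.41 and 9.45 FPKM and at 41.3 and 42.0 FPKM. ATP5IF1, the inhibitor that holds back ATP hydrolysis and is not a subunit, was at 76.2 and 55.2 FPKM, a ratio of 0.724 (0.653 to 0.803). It was called lower together with ATP5MD, ATP5MG and ATP5F1E, and ATP5F1D was the one complex V gene called higher. In shares, 22.2% of the 18 complex V genes compared were lower and 5.56% higher, against 16.8% and 18.4% of all genes compared. The lower share was thus near that of the table at large.

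The 3 genes of the proton-carrying c ring encode the same mature protein. ATP5MC1 was at 99.6 and 85.4 FPKM and ATP5MC2 at 114 and 98.3 FPKM, both with intervals below equal levels, and ATP5MC3 was at 49.6 and 48.4 FPKM. The 4 genes of the outer stalk, ATP5PB, ATP5PD, ATP5PF and ATP5PO, ran from -0.27 to 0.23 with intervals that all included equal levels. The highest of them, ATP5PO, was at 4.34 and 5.25 FPKM. ATP5S, a coupling factor gene grouped by its symbol, was at 9.50 and 10.1 FPKM. ATP5ME had 3 fragments in each library, ATP5MGL and the readthrough gene ATP5MF-PTCD1 were at 0 in both, as was the readthrough gene NDUFC2-KCTD14 of complex I.

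Gene length moved with the difference across the whole table. With protein-coding genes in 5 equal groups by length, the median difference ran from -0.06 in the shortest group (207 to 1094 nt) to 0.12 in the longest, and 57 of the 79 members lay in the shortest group. There the member median was -0.17, with 13 members called lower and 3 higher, against 22.6% lower and 12.2% higher among all genes of that group. When the running median of protein-coding genes of like length was subtracted, the median difference of the members was -0.05, with 11 members called lower and 5 higher, against 17.7% and 15.9% of all genes. By complex the medians then were -0.03 (I), -0.19 (II), 0.12 (III), -0.14 (IV) and -0.06 (V). The medians of complexes I and IV shifted the most, and complex II was then the lowest. In complex IV 4 genes were then called lower and 1 higher, against 6 and 0 before. NDUFB7 and COX6C then stood at 0.44 and 0.47 and were called higher. The part of length in the differences of single genes was not tested.

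**Figure D3:**
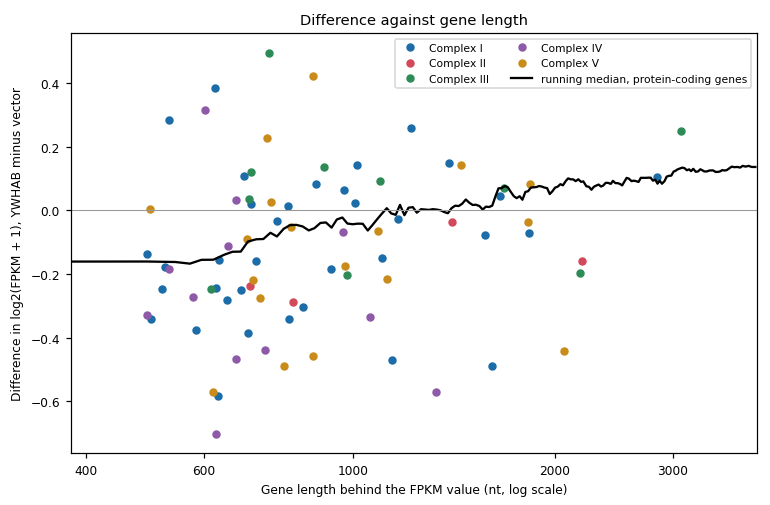
Difference in log2(FPKM + 1), YWHAB minus vector, of the 79 members compared against the gene length behind their FPKM values on a log axis, coloured by complex, with a black line for the running median of protein-coding genes. The line lies below 0 at the short lengths where most members sit, and points of complexes II and IV lie mostly under it while those of complex III lie mostly above.

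Levels within a complex were far from equal. Among genes compared, the highest and lowest differed 162-fold in complex I, 28.9-fold in complex II, 173-fold in complex III, 47.9-fold in complex IV and 216-fold in complex V in the YWHAB library. Several members at the low end lie under another annotated gene on the same strand. For 14 of the 83 members above 0, at least 50% of the coding bases lie under exons of another gene on that strand, and their median level was 3.92 FPKM (vector) and 4.46 FPKM (YWHAB). The other 69 had medians of 52.3 and 50.9 FPKM. A mean under 10 FPKM was seen in 10 of the 14 (71.4%) and in 11 of the 69 (15.9%). Among all protein-coding genes compared, 355 had such an overlap, with medians of 4.99 and 5.06 FPKM, and 69.0% of these were under 10 FPKM, against 32.3% of the other 11163.

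The overlapped members are NDUFA7, NDUFA9, NDUFA11, NDUFA13, NDUFB8, NDUFC2, NDUFV2, SDHD, UQCR11, COX6A1, COX6B2, COX8A, ATP5MG and ATP5PO. NDUFA7 had 6 and 2 fragments and was fully covered by the annotated protein-coding gene AC010323.1, which was at 0 in both libraries. NDUFA13, covered for 98.4% of its coding bases, was at 1.88 and 2.10 FPKM, and NDUFA9, covered for 85.1%, was at 1.90 and 1.75 FPKM. SDHD, covered for 65.8%, was an exception at 68.6 and 56.0 FPKM. Of the 11 others under 10 FPKM, SDHA, UQCR10, UQCRHL, NDUFS7, ATP5ME and COX7A1 had a mean under 3 FPKM, and NDUFA2, NDUFB2, NDUFV3, ATP5MF and ATP5S lay between 7.77 and 9.81 FPKM. NDUFS7 and ATP5ME share 45.4% and 44.0% of their coding bases with a gene on the opposite strand, and whether the counting used strand is not given. How the counter treated reads under 2 genes is likewise not given in the sources used here, so the levels of these genes are uncertain, while the median difference of the overlapped members, -0.14, was near that of the others, -0.11. The part of overlap in the low levels was not tested.

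**Figure D4:**
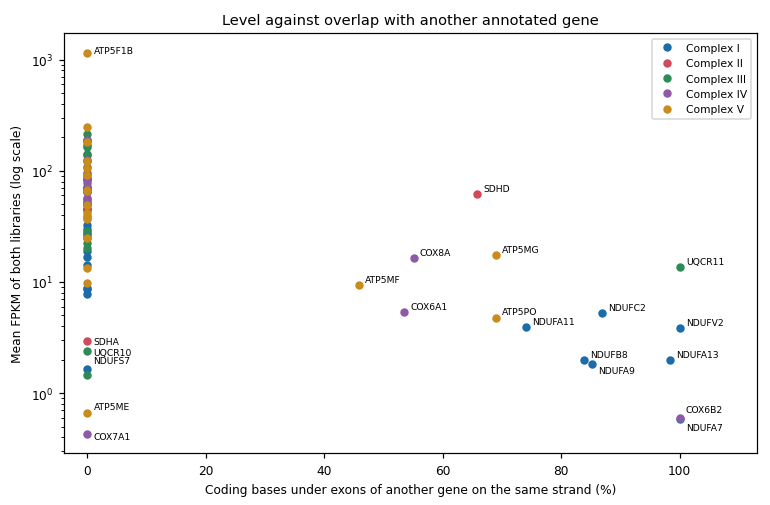
Mean FPKM of both libraries on a log axis against the percentage of a member's coding bases that lie under exons of another gene on the same strand, for the 83 members above 0, coloured by complex. Of the 14 members at 50% or more, 10 lie under 10 FPKM, and SDHD lies highest among them.

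Few fragments were counted on pseudogenes named after these genes. GENCODE 29 holds 149 pseudogenes whose symbols match the same pattern, of which 29 were above 0 and 6 had a mean of at least 1 FPKM. Together they held 81 fragments with the vector and 105 with YWHAB, against 65944 and 68997 for all 91 members. The pattern takes the symbols SDHA to SDHD and CYC1 whole, so copies of these genes are not in that count. Since the treatment of reads that fit several genes is not given, these counts cannot show how many reads came from copies.

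The promoters of the chain are known to carry sites for NRF1 and for ETS family factors such as GABPA, which tie the expression of nuclear mitochondrial genes together. Promoters of 70 of the 91 members were matched by symbol in the RefSeq table (GRCh38.p14, 250 bases before to 50 after the start). The letters GCGCNTGCG, part of the NRF1 site and read on both strands, were found in 23 of these 70 promoters (32.9%), against 15.4% of 9419 promoters of protein-coding genes compared and 7.47% of all 35116 in the table. The ETS letters CCGGAAG on both strands were found in 20 (28.6%), against 20.2% and 10.3%. By complex, the NRF1 letters were in 9 of 32 promoters of complex I, 2 of 3 of complex II, 4 of 7 of complex III, 2 of 14 of complex IV and 6 of 14 of complex V. The share was thus smallest in complex IV and largest in complex II, where only 3 promoters were matched. The letters were chosen after the values were seen, and their part in the differences was not tested. The 21 members compared that hold the letters had a median difference of -0.09 (-0.70 to 0.50), and the 42 without had -0.19 (-0.58 to 0.38). The ranges overlap over most of their width, and a match describes the letters, not binding.

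The 250 bases before the start are shown for 4 genes that span these cases. They are both complex II genes with the letters, a complex III gene with both kinds of letters, and NDUFB4, a complex I gene that was called lower and holds the letters as well. They read 5′ to 3′ on the gene's own strand of GRCh38.p14, and capitals mark GCGCNTGCG and CCGGAAG on either strand.
SDHA, chr5:218070-218319, plus strand: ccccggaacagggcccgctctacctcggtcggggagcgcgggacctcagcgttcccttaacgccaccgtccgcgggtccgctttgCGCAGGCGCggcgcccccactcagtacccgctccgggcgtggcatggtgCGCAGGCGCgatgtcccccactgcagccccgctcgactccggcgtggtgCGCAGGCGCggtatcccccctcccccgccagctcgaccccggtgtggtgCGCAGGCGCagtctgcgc
SDHD, chr11:112086623-112086872, plus strand: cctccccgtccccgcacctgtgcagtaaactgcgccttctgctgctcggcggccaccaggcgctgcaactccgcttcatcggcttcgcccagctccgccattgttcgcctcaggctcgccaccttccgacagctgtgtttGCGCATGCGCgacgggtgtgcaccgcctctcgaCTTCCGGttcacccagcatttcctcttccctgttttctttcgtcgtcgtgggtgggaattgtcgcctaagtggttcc
UQCR11, chr19:1605463-1605712, minus strand: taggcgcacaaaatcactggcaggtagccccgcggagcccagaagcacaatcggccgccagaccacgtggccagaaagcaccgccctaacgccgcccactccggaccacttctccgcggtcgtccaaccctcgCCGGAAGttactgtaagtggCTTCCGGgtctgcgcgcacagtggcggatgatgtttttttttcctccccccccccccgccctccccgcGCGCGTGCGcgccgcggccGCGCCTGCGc
NDUFB4, chr3:120596086-120596335, plus strand: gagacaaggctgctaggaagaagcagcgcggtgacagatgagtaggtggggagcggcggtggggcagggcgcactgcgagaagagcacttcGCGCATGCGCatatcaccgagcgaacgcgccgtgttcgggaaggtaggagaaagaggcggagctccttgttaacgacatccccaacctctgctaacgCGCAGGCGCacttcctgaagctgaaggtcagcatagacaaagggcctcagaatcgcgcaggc
In SDHA the NRF1 letters occur 4 times, beginning 165, 116, 67 and 18 bases before the start and so at equal spacing. SDHD has them at 110 and 109 bases, as overlapping matches on the 2 strands, and the ETS letters at 77. UQCR11 has the NRF1 letters at 29 and 10 bases and the ETS letters at 117 and 97. NDUFB4 has the NRF1 letters in an overlapping pair at 159 and 158 bases, at 62, and again at 7, where the match runs past the start and is not in the stretch shown. SDHA and NDUFB4, with 4 matches each, were at 0.965 and 0.763 times the vector library.

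The genes around the chain were read in the same way. The 13 subunits encoded by mitochondrial DNA were all lower in the YWHAB library, with a median difference of -0.54. Of these, 12 were called lower and 2 were lower by 2-fold, against 16.8% and 1.97% of all genes compared. With the length trend removed the median was -0.45 and 11 were called lower. MT-ND3, a core subunit of complex I, was at 888 FPKM with the vector and 400 FPKM with YWHAB, and MT-ATP8, of complex V, was at 148 and 53.5 FPKM. The least low were MT-ND5 at 1211 and 982 FPKM and MT-ND6 at 850 and 675 FPKM. These 13 genes took 3.89% of all fragments with the vector and 2.67% with YWHAB, while the 91 nuclear members took 0.533% and 0.500%. The nuclear and the mitochondrial sets were thus lower by unequal amounts, and complex II, the one complex with no mitochondrially encoded subunit, was lower as well.

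Of 50 assembly factors, which insert cofactors or join subunits, 46 were compared, with a median difference of -0.02, 2 of them called higher (4.35%) and 3 lower (6.52%), both under the shares of all genes compared (18.4% and 16.8%). The lowest were CMC1 and COX14, both of complex IV assembly, at 19.0 and 12.9 FPKM and at 14.0 and 10.1 FPKM. The highest were NDUFAF6, of complex I assembly, at 7.61 and 9.89 FPKM and COA7, of complex IV assembly, at 5.71 and 7.42 FPKM. The 19 factors for complex IV had a median of 0.07. The 18 TCA cycle genes had a median of -0.01 and none was called. The lowest were PDHX and IDH3A, at 44.8 and 35.7 FPKM and at 26.6 and 23.0 FPKM, and FH was the highest, at 105 and 130 FPKM.

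Among 20 genes for electron carriers and coenzyme Q, the median was 0.06, with 2 called higher (10.0%) and 3 lower (15.0%), no more than among all genes compared (18.4% and 16.8%). DHODH, the pyrimidine synthesis enzyme that feeds coenzyme Q, was at 4.42 and 6.79 FPKM, and GPD2, the glycerol phosphate shuttle enzyme, was at 18.1 and 25.4 FPKM. COQ10B, a coenzyme Q binding protein, was at 34.7 and 19.9 FPKM, and COQ6, a coenzyme Q synthesis enzyme, was at 3.28 and 2.10 FPKM. CYCS, cytochrome c itself, was at 74.2 and 57.9 FPKM. Of the other enzymes that pass electrons to coenzyme Q, ETFDH was at 20.8 and 17.2 FPKM and SQOR at 23.4 and 19.5 FPKM, so the enzymes that feed coenzyme Q from outside complexes I and II differed in opposite directions.

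The 20 regulators of mitochondrial biogenesis and of mitochondrial DNA had a median of 0.12, and here too 2 were called higher (10.0%) and 3 lower (15.0%), against 18.4% and 16.8% of all genes. PPARGC1A, the coactivator PGC-1 alpha, was at 3.40 FPKM with the vector and 1.30 FPKM with YWHAB. TFB2M, a mitochondrial transcription factor, was at 16.0 and 12.4 FPKM. The related coactivators PPRC1 and PPARGC1B were higher, at 27.9 and 43.4 FPKM and at 0.833 and 1.72 FPKM. NRF1 and GABPA themselves were at 7.19 and 8.31 FPKM and at 8.03 and 9.04 FPKM. The 3 coactivators of that family therefore differed in opposite directions, with PPRC1 the most abundant per length in both libraries.

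**Figure D5:**
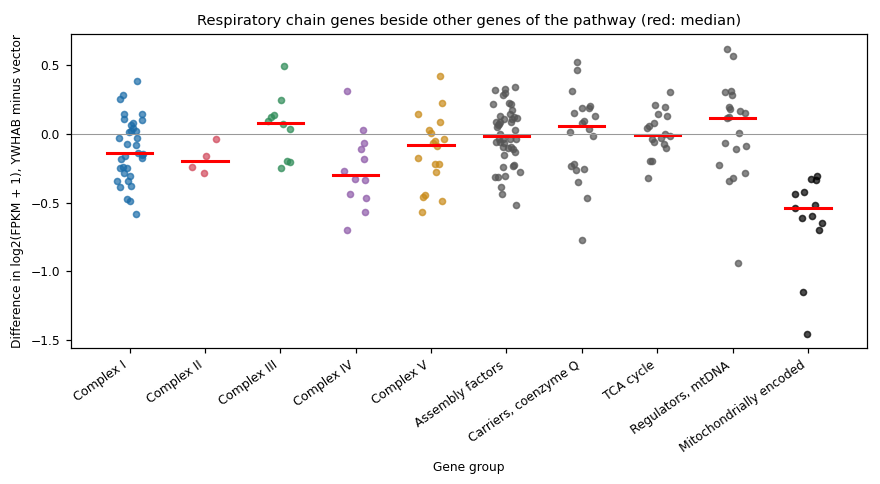
Difference in log2(FPKM + 1), YWHAB minus vector, of each compared gene (points) and the median (red bars) for the 5 complexes and for 5 sets of genes around them. The medians of the nuclear groups lie between -0.30 (complex IV) and 0.12 (regulators), and the 13 mitochondrially encoded genes lie lower, at -0.54.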

How the data were processed

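The authors deposited FPKM values for 60774 Ensembl gene identifiers in 1 column per library, per the labels of the 2 samples. The aligner HISAT2 2.0.5 and the build hg38 are listed in the submitters' processing notes. Not given in the sources used here are the counting tool, the gene annotation, the use of strand and the treatment of reads that fit several genes. Text in the protocol fields on fat cell induction and retinas was not taken as fact.

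Whole fragment counts were worked out from the deposited FPKM steps: for all 26770 genes above 0 both values could be written as whole counts over 1 whole length (relative tolerance 1e-12), and the counts summed to 99.9% of 12375999 and 13810668 fragments. Lengths of 17.4% of the genes were fixed only up to a multiple, taken nearest to the GENCODE 29 mean transcript length. The fragment numbers of these genes and the widths of their intervals depend on that choice. The low members NDUFB8, COX7A1 and ATP5ME are among these genes. Intervals of 95% are exact (Clopper-Pearson) and, like the floor of 3 fragments, cover counting error only, since PCR copies are not independent molecules.

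GENCODE 29 held 96.3% of the identifiers and gave symbols, coordinates and exon overlaps. Shared sequence was read from 50-base stretches of the transcripts. Genes that averaged 1 FPKM or more were compared on log2(FPKM + 1), with differences of at least 0.32 called higher or lower and of at least 1 called 2-fold. No replicate exists, so no test was run. The members, the lists and the named genes were chosen with earlier results of these data known. Members named with values are the cofactor-bearing and catalytic subunits, the paralogue sets, the 3 highest and 3 lowest of each complex by difference, and the highest and lowest levels. Of the surrounding lists, with all assembly factors as 1 list, the 2 highest and 2 lowest are named. Other members are named to account for the set, and the values of 1 member and 1 list gene are not reported here. CYCS, NRF1, GABPA, ETFDH and SQOR were named after their values were seen. The promoter letters, of which a longer form was searched first, were chosen after the values were seen. The procedure was tested on simulated counts. Python 3.11.15, pandas 2.3.3, scipy 1.17.1 and matplotlib 3.10.9 were used.

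The alternatives tried were no filter on low values, a filter at 5 FPKM, a pseudocount of 0.1, equal library totals, the median ratio of protein-coding genes set to 0, the length trend removed with a running median over 501 genes, and sets without overlapping or readthrough members and without tissue forms. Grouping NDUFA4 in complex I and leaving out members with coding overlap were added after seeing the data.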

Additional observations from a re-analysis of the deposited data

How the results depend on the processing

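No member passed 2-fold in either direction under any of the 10 alternatives. Each complex median kept its sign under all of them, at -0.18 to -0.03 for complex I, -0.24 to -0.14 for complex II, 0.04 to 0.12 for complex III, -0.34 to -0.14 for complex IV and -0.12 to -0.04 for complex V. The count of members called higher (a difference of at least 0.32) was 3 as reported, 1 among the 69 members that averaged 5 FPKM or more, 5 with equal library totals and 5 with the length trend removed. The count of members called lower was 17 as reported, 11 with the length trend removed, and 10 without readthrough or overlapping members, where only 46 members were left to count. With equal totals the counts changed because genes near the cut crossed it. NDUFA8, NDUFB3, COX7B and COX8A, at -0.34 to -0.33 as reported, were then at -0.30 each and no longer called lower. NDUFB7 and COX6C, at 0.28 and 0.31 as reported, were then at 0.324 and 0.356 and called higher. Removing the length trend takes an amount from each gene that depends on its length. Setting the median ratio of protein-coding genes to 0 shifted all genes by 0.04 on the log2 scale. No paired analysis was possible because each group holds 1 library and the labels carry no shared replicate numbers. For the same reason no library could be left out. Depth limits the low members most: NDUFB8, with 20 and 12 fragments, had an interval that included equal levels although its difference was among the lowest.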
